A study of Mus musculus with 6 samples.

Results

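The ephrin, Slit and netrin guidance systems were described from 41 gene symbols, 17 ligands and 24 receptors, of the 24419 in the deposited table. Membership followed the gene symbol alone. It took the ephrin-A and ephrin-B ligands, the EphA and EphB receptors, Slit1 to Slit3, Robo1 to Robo4, the netrins, the netrin-Gs, the Unc5 receptors, Dcc and Neo1, and no measured value was used. RNA was sequenced from male mouse cerebral cortex on day 4 after a 60 min occlusion of the middle cerebral artery, in cells that a cell sorter had enriched for neurons. The gate kept Thy1-positive cells and discarded those carrying ACSA2, CD31, CD45 or O4, surface markers of astrocytes, endothelium, leukocytes and the oligodendrocyte lineage. All 6 libraries came from Padi4flox/flox mice. The 3 control libraries are labelled with no Cre, and the 3 cKO libraries also carried Slc17a7-cre and Slc32a1-cre, which drive recombination in glutamatergic and GABAergic neurons and leave the Padi4 alleles of glia and vessels whole. The comparison asked which transcripts of neurons beside the infarct differ when these neurons lack Padi4, an enzyme that turns arginine into citrulline in proteins.

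Group names are the labels, since Padi4 did not bear them out, and values of a group are listed in the order of its replicates 1, 2 and 3. Padi4 was at 0, 0 and 0 in the control libraries and 0, 0.303 and 0.505 in the cKO libraries, so reads were assigned to it only in cKO replicates 2 and 3. The labels do not name the exons between the loxP sites, so reads from a deleted and an intact allele could not be separated. Thy1, the gene of the sort marker, was at 107, 164 and 104 in the control libraries and 75.1, 186 and 375 in the cKO libraries. Slc17a7 ran from 51.9 to 470.04, Slc32a1 from 2.83 to 40.4 and Atp1b2, which encodes the ACSA2 antigen, from 133 to 412. The depth was 10094145 to 24056755 reads per library, and 3 reads, taken as the detection floor, were worth 0.126 to 0.303 deposited units. The deposited value of a gene is its reads scaled to library depth (CPM). The authors appear to have rescaled these values once more for each library, as the column totals are unequal. Levels below are deposited values unless given per kb of exon. All 10 neuronal markers were present, with a summed level of 2456 to 3512 in the control libraries and 1350.1 to 6259 in the cKO libraries. The 10 oligodendrocyte markers were also all present and summed to more than the neuronal list in every library, 21899 to 27311 in the control libraries and 11279.9 to 32657 in the cKO libraries. The age of the mice, and whether a library came from 1 mouse or from several, is not stated in the labels, so p-values speak only to the spread among these 6 samples, and that spread can be technical. No library from an unoperated mouse was analysed here.

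Axon guidance works by local contact and by diffusible cues. Ephrins are membrane-bound ligands, ephrin-A by a lipid anchor and ephrin-B by a transmembrane segment, and their Eph receptors are tyrosine kinases that mostly repel growth cones; binding signals into both cells. Slits are secreted repellents read by Robo receptors at the midline and elsewhere. Netrins attract through DCC and neogenin and repel when a receptor of the UNC5 family takes part, whereas the lipid-anchored netrin-Gs bind leucine-rich partners at synapses instead. In adult cortex the same proteins shape dendritic spines, vessels and myelin contacts, and several limit axon growth after injury.

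No guidance gene passed the test between the groups, and libraries of the same label lay far apart for many of them. Of the 41 genes, 40 reached a value of 1 in 3 or more libraries and were tested; the other, Efna4, a lipid-anchored ephrin, was at 0.277, 0.147 and 0 in the control libraries and 0.912, 0 and 0.253 in the cKO libraries. In limma 0 of 40 were called at an adjusted p under 0.05, where 0% of the 14796 genes tested were called. The adjusted p was 0.9996 for each of the 40, and 0 members had an unadjusted p under 0.05, against 126 of all genes. Without cKO replicate 1, 5 members were under 0.05 (Efna5, Slit1, Ephb6, Epha1 and Ephb1), with 443 genes higher and 546 lower in all. Without control replicate 1 there were 2, Epha2 and Ephb4, with 131 genes higher and 75 lower among the 14796. With array weights there was 1, Ntng1, with 112 genes higher and 186 lower. None of these members was called after adjustment. The smallest unadjusted p-values in limma were 0.112 for Ntn3, 0.126 for Epha2, 0.139 for Ephb4 and 0.169 for Epha1. With edgeR 0 genes were called, with 41 higher and 32 lower in cKO at an unadjusted p under 0.05. DESeq2 called 1 gene, Ifit3, which is not a guidance gene, and had 97 higher and 78 lower at that level. Log2 fold changes, given as cKO minus control on the log2(value + 1) scale, where low genes look less changed than they are, were above 0 for 19 members and below 0 for 21, and the count above 0 ran from 13 without control replicate 1 to 25 without control replicate 2. They are printed ± their standard error (SE). Their median was -0.02, and over all tested genes it was also -0.02, with 48.0% above 0.

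Ligands and receptors did not part along group lines. Of 16 tested ligands, 7 were above 0 and 9 below, with a median of -0.02. Of 24 receptors, 12 were above and 12 below, with a median of 0.03. The control and cKO libraries overlapped for every tested member, so 0 of 40 stood wholly above or below, where 4.7% of all tested genes did so, 2.45% with cKO above and 2.26% with cKO below. The spread within groups was wide. The median pooled standard deviation (SD) on the log2 scale was 0.81 for the guidance genes and 0.63 for all tested genes. The difference between groups exceeded the gene's own pooled SD for 4 of 40 members (10%), against 18.5% of all tested genes.

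**Figure D1:**
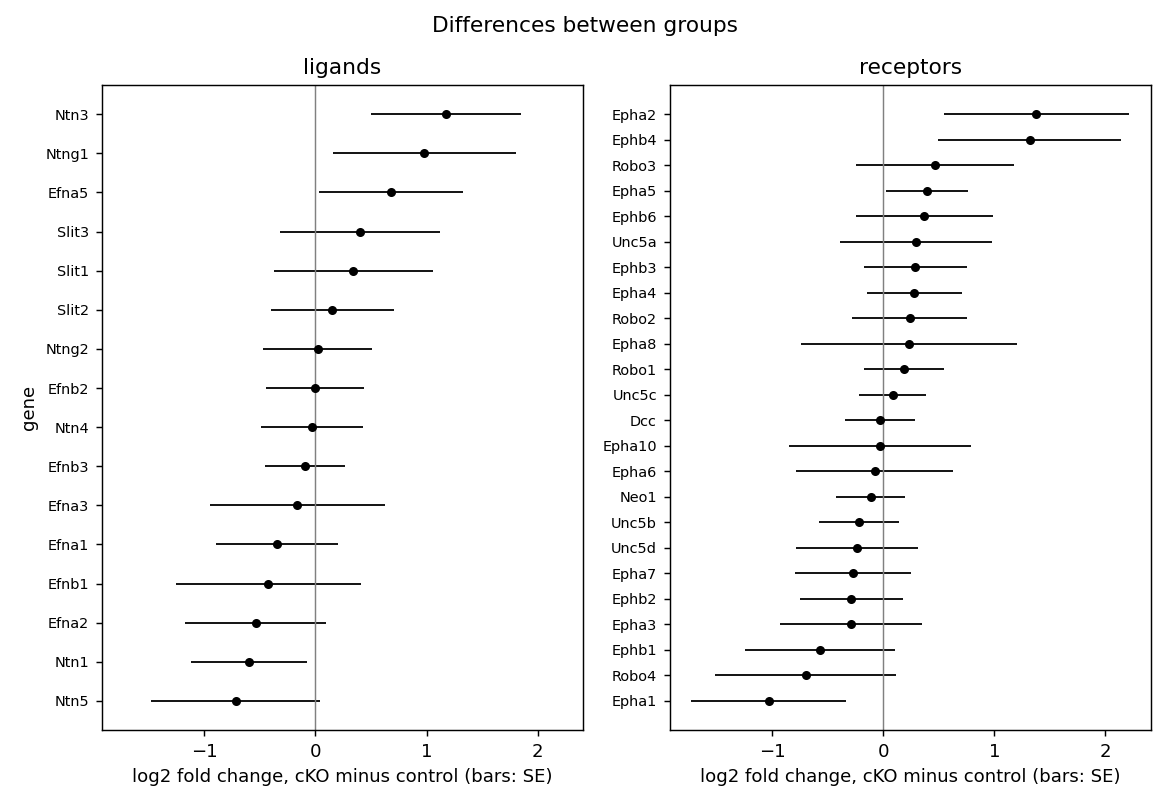
Log2 fold change (cKO minus control, on the log2(value + 1) scale) of the 16 tested ligands and 24 receptors; points are limma estimates from 3 libraries per group and bars are ±1 standard error. Estimates run from -1.03 (Epha1) to 1.38 (Epha2), lie on both sides of 0 in both panels, and none passed the adjusted threshold.

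The ephrin ligands were led by Efnb3. This transmembrane ephrin bars corticospinal axons from recrossing the midline in development and is also known from myelin. Efnb3 (chromosome 11, 69554092 to 69560205, minus strand; positions are from GENCODE M21 on GRCm38, the mm10 assembly) was at 217, 223 and 157 in the control libraries and 274, 194 and 117 in the cKO libraries. The highest and the lowest library were both labelled cKO, replicates 1 and 3, with all controls between them. The group means were 199 ± 36.6 against 195 ± 78.7 (SD, n = 3 each), a log2 fold change of -0.09 ± 0.36 (SE), which turned to 0.23 without cKO replicate 3. Per kb of exon it had the highest level of the 41 genes, at 61.9 ± 17.3 over the 6 libraries (SD). It made up 71.9% to 93.2% of the ephrin-B level per kb.

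Efnb2, the ephrin of arterial endothelium and of many neurons, was at 37.7, 42.3 and 42.5 in the control libraries and 29.4, 28.7 and 79.3 in the cKO libraries. Only cKO replicate 3 stood away from the rest, and the fold change was -0.0037 ± 0.44. Efnb1, an X-linked ephrin that guides callosal axons, was at 13.4, 6.62 and 4.28 in the control libraries and 11.2, 0.808 and 9.85 in the cKO libraries, lowest in cKO replicate 2 and highest in control replicate 1. Among the lipid-anchored ephrins Efna5 had the highest mean per kb, 10.7 ± 7.56 (SD). Efna5, the graded ephrin of retinal and cortical maps, was at 27.6, 35.6 and 20.7 in the control libraries and 13.002, 87.5 and 74.4 in the cKO libraries. cKO replicates 2 and 3 were above every control, while cKO replicate 1 was below every control, and the fold change was 0.68 ± 0.65. Efna1, an ephrin of vessels and inflamed tissue, ranged over 7.11 to 23.5, Efna2 over 4.04 to 16.3 and Efna3 over 1.39 to 13.8, each highest in control replicate 2. Efna3 shares 344 exon bases with an antisense gene and Efna4 168, and without the strand setting of the counting, not given in the sources used here, their reads cannot be told apart. Epha6, Epha10, Ephb1, Ephb4, Unc5a and Unc5c likewise share 33 to 152 exon bases with a gene on the other strand.

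Among the EphA receptors, Epha4 stood highest. It binds ephrins of both classes, collapses growth cones and is well known as a brake on axon regrowth. Epha4 (chromosome 1, 77367185 to 77515088, minus strand) was at 154, 222 and 133 in the control libraries and 112, 199.8 and 363 in the cKO libraries. cKO replicate 1 was the lowest library and cKO replicate 3 the highest, so the controls lay inside the range of the cKO libraries. The means were 169.6 ± 46.8 against 225 ± 128 (SD, n = 3 each), with a fold change of 0.28 ± 0.43 (SE), which became -0.15 without cKO replicate 3 and 0.70 without cKO replicate 1. Per kb it reached 24.5 ± 11.3 (SD), 47.3% to 67.1% of the EphA total.

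Epha5, a cortical receptor of ephrin-A5, was next by deposited value, at 35.8, 54.4 and 57.6 in the control libraries and 43.9, 73.6 and 80.1 in the cKO libraries, with a fold change of 0.40 ± 0.37. Its 2 lowest libraries were control replicate 1 and cKO replicate 1. Epha7, which has a truncated form that can turn repulsion into adhesion, was at 41.02, 45.7 and 23.3 in the control libraries and 34.3, 13.5 and 52.2 in the cKO libraries, lowest in cKO replicate 2 and highest in cKO replicate 3. Epha10, whose kinase domain is inactive, was at 7.65, 44.4 and 26.5 in the control libraries and 5.95, 58.3 and 23.7 in the cKO libraries. Both groups thus held a low library, replicate 1 in each, and a high one, replicate 2 in each. Epha6 had the same order of libraries as Epha10, over 5.95 to 42.02. Epha3, a receptor for ephrin-A5, stayed at 2.64 to 9.49, and Epha8 ran from 0 in cKO replicate 1, below its floor of 0.144, to 9.49 in cKO replicate 2.

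The largest EphA differences between groups came from low genes. Epha2 (chromosome 4, 141301240 to 141329384, plus strand), an epithelial and vascular receptor, was at 6.82, 0 and 2.06 in the control libraries and 6.19, 10.9 and 3.91 in the cKO libraries. Control replicate 2 was below its floor of 0.221, yet control replicate 1 was above 2 of the 3 cKO libraries. The fold change was 1.38 ± 0.83 and ran from 0.62 to 2.10 as single libraries were left out, lowest without control replicate 2 and highest without control replicate 1. Epha1 (chromosome 6, 42358487 to 42373268, minus strand) was at 12.997, 11.5 and 8.33 in the control libraries and 13.8, 2.32 and 2.90 in the cKO libraries. cKO replicates 2 and 3 were the lowest libraries, but cKO replicate 1 was the highest of all. Its fold change was -1.03 ± 0.70, or -1.71 without cKO replicate 1 and -0.63 without cKO replicate 2. Oligodendrocyte marker sums had the same 3 libraries at their ends, 27311, 21899 and 21990.3 in the control libraries and 32657, 21012 and 11279.9 in the cKO libraries; their part in the Epha1 difference was not tested. In bulk RNA, fewer cells of a type and less RNA per cell cannot be told apart. Epha1 also shares 236 exon bases with Zyx on the other strand.

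The EphB receptors had fold changes of both signs, 3 above 0 and 2 below. Ephb1, an ephrin-B receptor of retinal axons and synapses, had the highest mean by deposited value. Ephb1 (chromosome 9, 101922128 to 102354693, minus strand) was at 108, 36.4 and 114 in the control libraries and 154, 21.5 and 40.2 in the cKO libraries. Control replicate 2 and cKO replicates 2 and 3 formed the low side, and the other 3 libraries the high side. The means were 86.1 ± 43.1 against 72.03 ± 71.9 (SD, n = 3 each), with a fold change of -0.57 ± 0.68 (SE) that shrank to 0.04, with its sign turned, without cKO replicate 2 and grew to -1.35 without cKO replicate 1. Summed markers of oligodendrocyte precursors, all 6 of which were present, were 1884, 1705 and 1968 in the control libraries and 2207, 1324 and 1456 in the cKO libraries, also lowest in cKO replicate 2 and highest in cKO replicate 1. Their part in the Ephb1 values was not tested.

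Ephb6, a kinase-inactive receptor, was the EphB gene with the highest level per kb, 14.8 ± 8.63 (SD). Ephb6 was at 26.5, 52.96 and 50.003 in the control libraries and 17.3, 98.6 and 88.8 in the cKO libraries, lowest in cKO replicate 1 and highest in cKO replicate 2. Ephb2, an ephrin-B receptor at excitatory synapses, stayed within 15.5 to 30.1, and Ephb3 within 14.5 to 35.5. Ephb4 (chromosome 5, 137350109 to 137378669, plus strand), the venous partner of ephrin-B2, was at 8.30, 0.221 and 0.833 in the control libraries and 5.04, 7.68 and 5.18 in the cKO libraries. Control replicates 2 and 3 were under 1 and control replicate 1 was the highest library, so the cKO libraries lay within the range of the controls. The fold change was 1.32 ± 0.82, or 0.73 without control replicate 2 and 2.20 without control replicate 1. All 8 endothelial markers were present. They summed to 161, 68.3 and 92.9 in the control libraries and 153, 104 and 119 in the cKO libraries. Within these sums Cdh5 was at 97.99, 16.5 and 15.8 in the control libraries and 55.4, 12.7 and 69.5 in the cKO libraries. Cldn5 was at 0 in control replicate 2 and cKO replicate 2. The part of endothelial content in the Ephb4 difference was not tested.

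**Figure D2:**
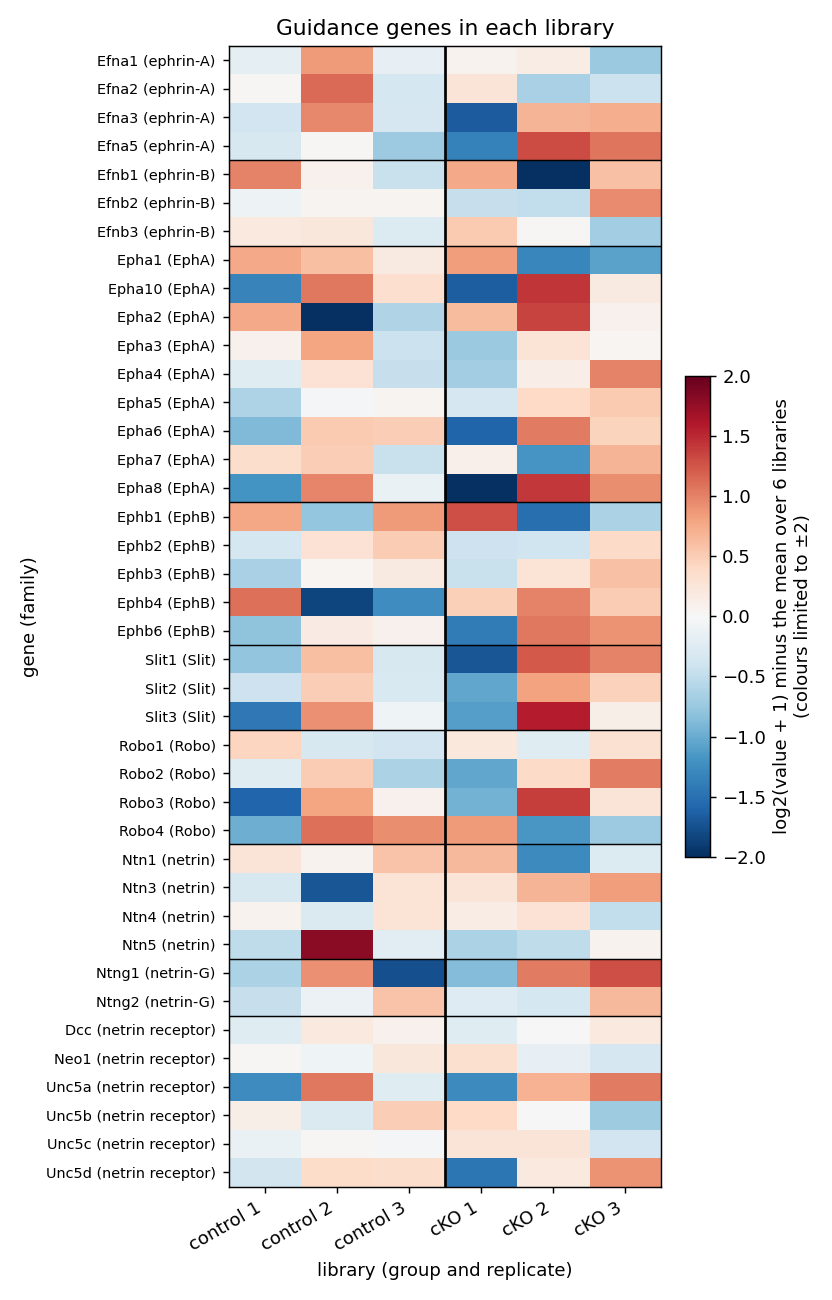
Each row is 1 of the 40 tested guidance genes and each column 1 library, 3 control at left and 3 cKO at right; colour gives log2(value + 1) minus the mean of that gene over the 6 libraries, with colours limited to ±2. Columns differ within both groups: cKO replicate 1 is the lowest library for 16 of 40 genes, and cKO replicates 2 and 3 are the highest for 11 each.

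All 3 Slit genes varied several-fold among libraries of the same label. Slit1, a repellent of the developing nervous system, and Slit3 had the highest levels per kb, 9.54 ± 6.33 and 8.65 ± 6.75 (SD), within the spread of each other. Slit1 (chromosome 19, 41600257 to 41743665, minus strand) was at 25.6, 68.1 and 35.6 in the control libraries and 12.95, 106 and 90.3 in the cKO libraries. Replicate 1 was the lowest library in each group, and cKO replicates 2 and 3 were above every control. The means were 43.1 ± 22.2 against 69.8 ± 49.9 (SD, n = 3 each), with a fold change of 0.34 ± 0.72 (SE), which was 1.28 without cKO replicate 1 and turned to -0.19 without cKO replicate 2 and -0.07 without cKO replicate 3.

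Slit3, also known from vessels and diaphragm, differed from Slit1 and Slit2 in its order of libraries. Slit3 (chromosome 11, 35121224 to 35708507, plus strand) was at 14.5, 77.1 and 38.1 in the control libraries and 18.4, 123 and 44.2 in the cKO libraries. Replicate 2 was the highest library in each group and replicate 1 the lowest. The means were 43.2 ± 31.6 against 61.7 ± 54.2 (SD, n = 3 each), and the fold change was 0.40 ± 0.72 (SE), which turned to -0.21 without control replicate 1 and to -0.29 without cKO replicate 2, and was 1.05 without cKO replicate 1. Slit2, the best known midline repellent, was at 17.9, 34.5 and 19.3 in the control libraries and 11.3, 43.1 and 33.5 in the cKO libraries, with cKO replicate 1 lowest and cKO replicate 2 highest. For each of the 3 Slits the 2 lowest libraries were control replicate 1 and cKO replicate 1. Summed, the Slits were at 57.98, 179.7 and 93.1 in the control libraries and 42.7, 272 and 168 in the cKO libraries, a 6.37-fold range that was the widest of the 9 families by deposited value.

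Robo2, which carries Slit repulsion in cortical and retinal axons, had the highest mean of the Robo receptors by deposited value. Robo2 (chromosome 16, 73891839 to 74411825, minus strand) was at 69.5, 119 and 53.1 in the control libraries and 39.5, 108 and 169 in the cKO libraries. cKO replicate 1 was lowest and cKO replicate 3 highest, the same ends as for Epha4. The means were 80.4 ± 34.1 against 106 ± 64.7 (SD, n = 3 each), with a fold change of 0.24 ± 0.52 (SE), which turned to -0.21 without cKO replicate 3 and to -0.01 without control replicate 3, and was 0.82 without cKO replicate 1. Robo1, its close relative, was flatter, at 73.8, 43.4 and 41.4 in the control libraries and 63.2, 46.2 and 67.5 in the cKO libraries, with the groups interleaved.

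Robo3, a divergent Robo that lets commissural axons cross, was at 8.39, 47.4 and 28.8 in the control libraries and 13.6, 72.4 and 32.4 in the cKO libraries. Its order matched that of Slit3, low in replicate 1 and high in replicate 2 of each group. Robo4 (chromosome 9, 37401897 to 37415115, plus strand), the endothelial Robo, was at 1.29, 8.68 and 7.56 in the control libraries and 7.10, 1.01 and 1.73 in the cKO libraries, with 3 libraries at 1.01 to 1.73 and 3 at 7.10 to 8.68. Both kinds occurred in both groups, and the fold change was -0.70 ± 0.82, or -0.29 without cKO replicate 2 and -1.36 without control replicate 1. Of the 8 endothelial markers, whose sums are given above, Cdh5 alone made up 97.99 of the sum of 161 in control replicate 1. Kdr was at 5.62, 9.64 and 6.50 in the control libraries and 6.48, 0.606 and 3.45 in the cKO libraries, and Pecam1 at 4.79, 4.85 and 6.94 in the control libraries and 7.53, 0.909 and 2.65 in the cKO libraries. These 2 markers, chosen after their values were seen, had the same 3 lowest libraries as Robo4. Other markers of the list went the other way. Tek, Esam and Slco1a4 were highest in cKO replicate 2, the lowest library of Robo4, at 12.3, 26.7 and 38.4. The part of endothelial content in the Robo4 values was not tested.

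The secreted netrins were low and their family total was steady, at 55.7, 55.5 and 69.6 in the control libraries and 68.8, 45.05 and 48.2 in the cKO libraries. Ntn1, the founding chemoattractant and also a product of oligodendrocytes, was its main gene by deposited value. Ntn1 (chromosome 11, 68209364 to 68400823, minus strand) was at 29.3, 25.6 and 36.4 in the control libraries and 38.5, 9.49 and 19.99 in the cKO libraries. cKO replicate 1 was the highest library and cKO replicates 2 and 3 the lowest, and the fold change was -0.60 ± 0.52, or -0.11 without cKO replicate 2 and -1.07 without cKO replicate 1. The 6 libraries stood in the same order for Ntn1 as for the summed precursor markers given above; the part of precursor content in the Ntn1 values was not tested.

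Ntn4, a netrin that binds laminin in basement membranes, held within 13.1 to 23.2 and had the highest netrin level per kb, 5.14 ± 1.12 (SD). Ntn3 (chromosome 17, 24203848 to 24209531, minus strand) was at 4.70, 1.18 and 7.61 in the control libraries and 7.48, 10.4 and 11.7 in the cKO libraries. Control replicate 3 was above cKO replicate 1 and control replicate 2 was far below the rest. The fold change of 1.17 ± 0.67 had the smallest p of the 40 members and was 0.61 without control replicate 2 and 1.60 without control replicate 3. Ntn3 shares 89 exon bases with Tbc1d24 on the same strand and 139 with BC028777 on the other. Ntn5 (chromosome 7, 45684022 to 45694556, plus strand), a little studied netrin, was at 1.94, 13.5 and 2.56 in the control libraries and 1.68, 1.92 and 3.37 in the cKO libraries. Control replicate 2 alone was high, and the fold change of -0.72 ± 0.76 went to 0.01 without it. Ntn5 shares 519 exon bases with Sec1 on the other strand.

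The netrin-Gs sit on axons and pair with the NGL proteins of dendrites. Ntng1 (chromosome 3, 109780040 to 110144011, minus strand) was at 5.90, 19.3 and 2.17 in the control libraries and 4.89, 21.01 and 25.3 in the cKO libraries. Both groups held low and high libraries, control replicate 3 being the lowest and cKO replicate 3 the highest. The fold change was 0.98 ± 0.82, from 0.35 without control replicate 3 to 1.69 without control replicate 2. Ntng2 was at 14.4, 18.5 and 30.4 in the control libraries and 16.8, 15.7 and 32.2 in the cKO libraries, highest in replicate 3 of each group, with a fold change of 0.02 ± 0.49. Ntng2 shares 558 exon bases with 6530402F18Rik on the same strand.

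The netrin receptors had the highest summed level of the receptor families, and their sum varied least between libraries. Neo1 encodes neogenin, a receptor for netrins and for repulsive guidance molecules. Neo1 (chromosome 9, 58874687 to 59036441, minus strand) was at 376, 351 and 434 in the control libraries and 464, 332 and 294 in the cKO libraries. cKO replicate 1 was the highest library and cKO replicate 3 the lowest. The means were 387 ± 42.5 against 363 ± 88.9 (SD, n = 3 each), with a fold change of -0.11 ± 0.31 (SE), which turned to 0.03 without cKO replicate 3. Per kb Neo1 ranked second of the 41 genes, at 43.04 ± 7.30 (SD), and it was 34.2% to 52.2% of the receptor family.

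Unc5b, a repulsive netrin receptor that also acts in vessels, had the same lowest library as Neo1. Unc5b (chromosome 10, 60762593 to 60831581, minus strand) was at 152, 115 and 198 in the control libraries and 185, 139 and 85.6 in the cKO libraries. Control replicate 3 was the highest library and cKO replicate 3 the lowest. The means were 155 ± 41.4 against 136 ± 49.5 (SD, n = 3 each), with a fold change of -0.22 ± 0.36 (SE) that became 0.08 without cKO replicate 3. Unc5c, a repulsive receptor of cerebellar and spinal axons, varied less. Unc5c (chromosome 3, 141465216 to 141834924, plus strand) was at 105, 117 and 112 in the control libraries and 136, 136 and 87.97 in the cKO libraries. The 3 controls lay within the span of the cKO libraries, and the means were 111 ± 6.11 against 120.3 ± 27.98 (SD, n = 3 each). Its fold change of 0.09 ± 0.30 (SE) went to -0.02 without cKO replicate 1 or without cKO replicate 2, and to -0.05 with array weights.

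Unc5a, a neuronal member of the same subfamily, behaved otherwise. Unc5a was at 23.2, 119.7 and 47.9 in the control libraries and 22.9, 92.5 and 118 in the cKO libraries. Replicate 1 of each group stood near 23, and control replicate 2 and cKO replicates 2 and 3 at 92.5 to 119.7, a 5.23-fold range, against a 2.31-fold range for Unc5b. Unc5d, which also binds the FLRT adhesion proteins of migrating neurons, was at 48.03, 80.5 and 79.1 in the control libraries and 22.1, 70.9 and 117 in the cKO libraries, again lowest in replicate 1 of each group. Dcc, the attractive netrin receptor, was at 54.9, 74.4 and 69.2 in the control libraries and 54.7, 65.4 and 74.8 in the cKO libraries. Its 1.37-fold range was the narrowest of the 41 genes, and its fold change was -0.03 ± 0.31.

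Promoter sequences are shown for 4 receptors, Unc5a and Epha5, whose 2 lowest libraries were replicate 1 of each group, and Neo1 and Unc5b, for which these were not the 2 lowest. For the second pair a highest library of cKO replicate 1 or control replicate 3 was also required. The 4 sequences come from the highest-mean members of each pattern whose upstream stretch adjoined the annotated gene start and held no annotated exon. Each is the 250 bases before the RefSeq gene start on GRCm38.p6, printed 5′ to 3′ on the strand of the gene, with GGGCGG or its reverse complement CCGCCC, the core of a GC box, in capitals.
Unc5a, chr13:54949161-54949410, plus strand: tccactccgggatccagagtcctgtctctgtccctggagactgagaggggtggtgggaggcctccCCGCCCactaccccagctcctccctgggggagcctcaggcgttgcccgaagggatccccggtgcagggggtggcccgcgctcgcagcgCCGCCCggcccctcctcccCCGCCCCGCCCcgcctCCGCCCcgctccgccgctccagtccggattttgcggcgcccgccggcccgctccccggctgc
Epha5, chr5:84417383-84417632, minus strand: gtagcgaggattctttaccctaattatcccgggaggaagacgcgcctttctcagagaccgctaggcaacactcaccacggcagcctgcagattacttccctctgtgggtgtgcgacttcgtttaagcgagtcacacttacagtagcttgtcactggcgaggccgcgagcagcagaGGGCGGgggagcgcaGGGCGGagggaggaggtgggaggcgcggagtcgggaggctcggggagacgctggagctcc
Neo1, chr9:59036442-59036691, minus strand: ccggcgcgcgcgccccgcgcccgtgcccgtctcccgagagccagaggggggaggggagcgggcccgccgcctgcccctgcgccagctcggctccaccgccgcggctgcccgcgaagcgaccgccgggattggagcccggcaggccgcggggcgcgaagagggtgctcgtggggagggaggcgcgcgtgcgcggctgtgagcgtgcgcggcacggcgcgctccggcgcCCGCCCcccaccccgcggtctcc
Unc5b, chr10:60831582-60831831, minus strand: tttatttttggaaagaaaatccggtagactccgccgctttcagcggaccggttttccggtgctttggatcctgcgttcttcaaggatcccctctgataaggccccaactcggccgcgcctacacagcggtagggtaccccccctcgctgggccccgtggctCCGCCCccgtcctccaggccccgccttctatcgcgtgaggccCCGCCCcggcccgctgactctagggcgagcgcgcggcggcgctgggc

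The motif was found 5 times upstream of Unc5a, 2 of them overlapping, 2 times for Epha5, 1 time for Neo1 and 2 times for Unc5b, so all 4 held it. RefSeq entries matched 36 of the 41 members and gave 41 sequences, since some genes have several starts; Dcc, Efnb3, Ntn1, Slit1 and Unc5d had none. Of these sequences, 28 (68.3%) held the motif on either strand, against 32.7% of all 32851 promoters in the reference over the same length. The motif is made of G and C alone. The share of G and C was 76.8% for Unc5a, 62.4% for Epha5, 83.2% for Neo1 and 66.8% for Unc5b. Over all promoters its median was 52.4%. The 68.3% and 32.7% were not compared at equal G and C content. A match describes letters in a window and is not a measured binding site.

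Levels per kb of exon allow only a rough comparison of genes. The length used merges all annotated exons of a gene and can exceed that of the transcript in use. Slit2, with 25.4 kb of exon, ranked 21 by deposited value and 36 per kb. Set per kb, the order began with Efnb3, Neo1, Epha4 and Unc5b, at 61.9 ± 17.3, 43.04 ± 7.30, 24.5 ± 11.3 and 23.3 ± 6.73 (SD over 6 libraries). Unc5a followed at 16.96 ± 10.8 and Ephb6 at 14.8 ± 8.63, and the spread of these 2 overlapped that of Unc5b. Ephb1, Efna5, Slit1 and Slit3 came next, at 11.3 ± 7.65, 10.7 ± 7.56, 9.54 ± 6.33 and 8.65 ± 6.75, and could not be ranked beyond their spread. At the foot were Robo4 at 0.860 ± 0.673, Epha3 at 0.626 ± 0.277 and Efna4 at 0.165 ± 0.212. The family sums per kb were 102 ± 8.43 for netrin receptors, 70.5 ± 15.7 for ephrin-B, 44.7 ± 15.2 for EphA and 32.4 ± 5.25 for EphB. Ephrin-As came to 24.99 ± 9.60, Slits to 19.2 ± 13.02, Robos to 14.7 ± 4.89, netrins to 12.7 ± 1.92 and netrin-Gs to 6.94 ± 2.46.

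**Figure D3:**
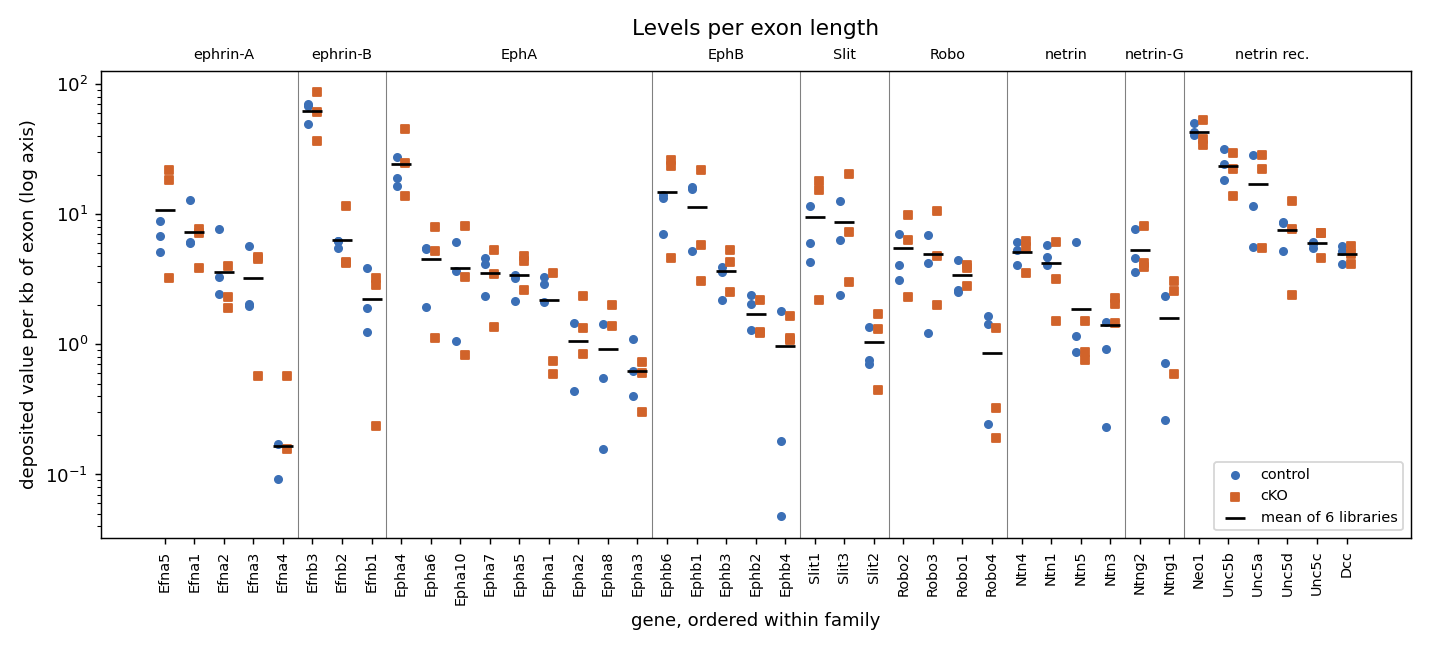
Deposited value per kb of exon (log axis) of the 41 guidance genes, ordered within family; each point is 1 library (circles control, squares cKO), bars are means of 6 libraries, and libraries at 0 (Efna4, Epha2 and Epha8) cannot be drawn on this axis. Efnb3, at a mean of 61.9, Neo1 at 43.0 and Epha4 at 24.5 lead, and circles and squares overlap for every tested gene.

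Ligand and receptor totals differed by system. Netrin ligands, with netrin-Gs counted among them, were a small part of the netrin system. The ligand share of summed deposited values was 9.09%, 9.82% and 9.80% in the control libraries and 9.28%, 8.91% and 11.97% in the cKO libraries. Netrin-Gs bind partners other than these receptors, so the share is not limited to ligands of DCC, neogenin and UNC5. In cKO replicate 3, where it was highest, netrin-Gs summed to 57.5 and the secreted netrins to 48.2. In the Slit system the share was 27.5%, 45.2% and 41.5% in the control libraries and 25.7%, 54.4% and 38.3% in the cKO libraries, so only in cKO replicate 2 did Slit reads outnumber Robo reads. In the ephrin system it was 41.6%, 39.1% and 32.7% in the control libraries and 44.8%, 36.6% and 28.5% in the cKO libraries. Computed per kb, the ligand share was 14.3% to 17.98% for netrins, 37.4% to 66.6% for Slits and 43.4% to 65.1% for ephrins. The receptor sum exceeded the ligand sum in every library for the netrin and ephrin systems by deposited value, but per kb the ephrin ligands were ahead in 5 of 6 libraries.

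Between the groups, the ligand share was 1.40 percentage points higher in cKO for Slits, 0.48 higher for netrins with netrin-Gs, and -1.13 for ephrins. The SD of the share was 9.35 points in the control and 14.4 in the cKO libraries for Slits, 0.414 and 1.67 for netrins, and 4.59 and 8.15 for ephrins. Each difference turned with single libraries left out. The Slit difference was -6.07 points without cKO replicate 2, -3.90 without control replicate 1 and 8.29 without cKO replicate 1. For netrins it was -0.48 without cKO replicate 3 and 1.05 without cKO replicate 2, and -0.27 when computed per kb. For ephrins it was -5.21 without cKO replicate 1, 0.78 without control replicate 1 and 2.94 without cKO replicate 3. Total Eph receptor level was 506 ± 57.4 against 595 ± 165 (SD, n = 3 each), Robo 167 ± 45.3 against 207 ± 75.6, Slit 110.2 ± 62.7 against 161 ± 115 and netrin receptor 852 ± 90.5 against 833 ± 53.6. The groups overlapped in each of these totals.

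**Figure D4:**
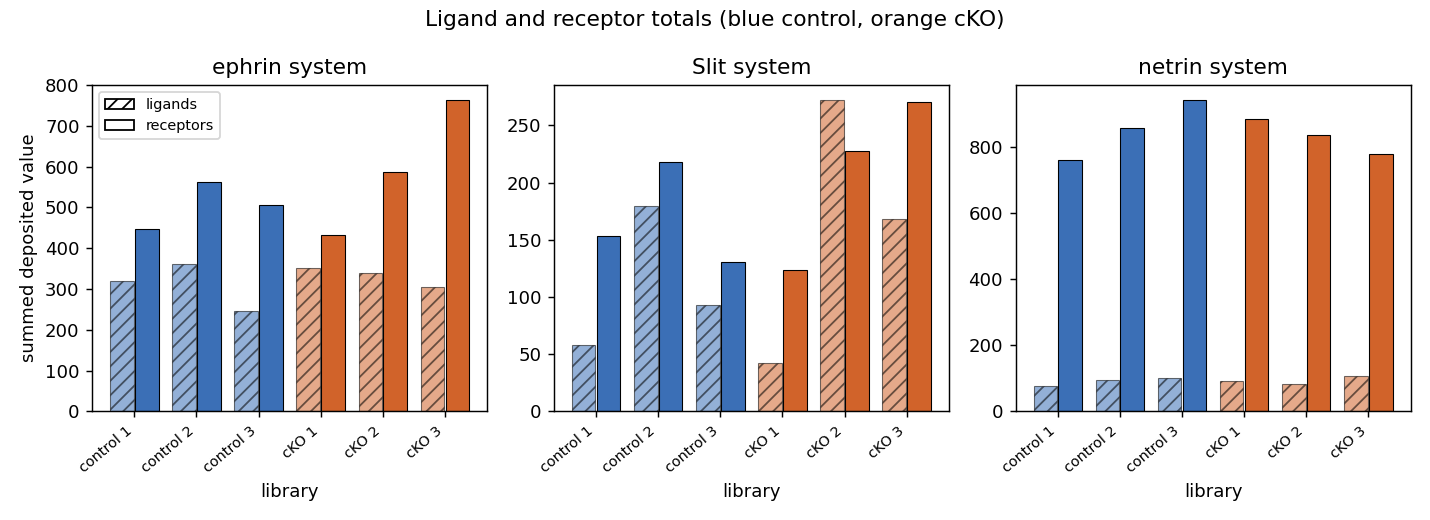
Summed deposited value of ligands (hatched) and receptors (solid) of the ephrin, Slit and netrin systems in each of the 6 libraries (blue control, orange cKO), from 0, with a separate vertical axis for each panel. Slit ligands range from 42.7 in cKO replicate 1 to 272 in cKO replicate 2, while the netrin receptors stay between 759 and 940.

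For many guidance genes the same 2 libraries were low, 1 of each label. cKO replicate 1 was the lowest library for 16 of 40 members (40%), against 15.6% of all tested genes. Control replicate 1 and cKO replicate 1 were together the 2 lowest libraries for 14 of 40 (35%), against 14.0%, and together the 2 highest for 2 of 40 (5%), Efnb1 and Epha1, against 14.5%. The 14 were Efna3, Slit1, Slit2 and Slit3 among the ligands, and Epha5, Epha6, Epha8, Epha10, Ephb3, Ephb6, Robo3, Dcc, Unc5a and Unc5d among the receptors. This pair of libraries was picked after the values were seen, so the counts are a description.

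Markers of cell types varied between the same libraries. The neuronal sums were 2456, 3512 and 2568 in the control libraries and 1350.1, 3802 and 6259 in the cKO libraries, lowest in the replicates numbered 1, and the oligodendrocyte sums had cKO replicate 1 highest and control replicate 1 next. Mural cell and fibroblast markers, 10 of 10 present, summed to 4750.2, 393 and 593 in the control libraries and 2705, 138 and 2651 in the cKO libraries, with Lum at 0 in cKO replicate 2. Astrocyte sums, 8 of 8 present, were 851, 1137 and 579 in the control libraries and 1092, 1834 and 849 in the cKO libraries. Microglia and macrophage sums, 8 of 8 present, were low, at 29.9 to 69.2 in the control libraries and 22.1 to 70.5 in the cKO libraries, with C1qa at 0 in control replicate 2 and cKO replicate 2 and Tyrobp at 0 in control replicate 2. Dcc, Epha4, Robo2 and Unc5d were highest and lowest in the same 2 libraries as the neuronal sum. How many of all tested genes did so was not counted. Highest in cKO replicate 1, like the oligodendrocyte sum, were 6 members (15%), against 16.4% of all tested genes. They were Efnb3, Epha1, Ephb1, Neo1, Ntn1 and Unc5c. The part of cell content in these levels was not tested.

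**Figure D5:**
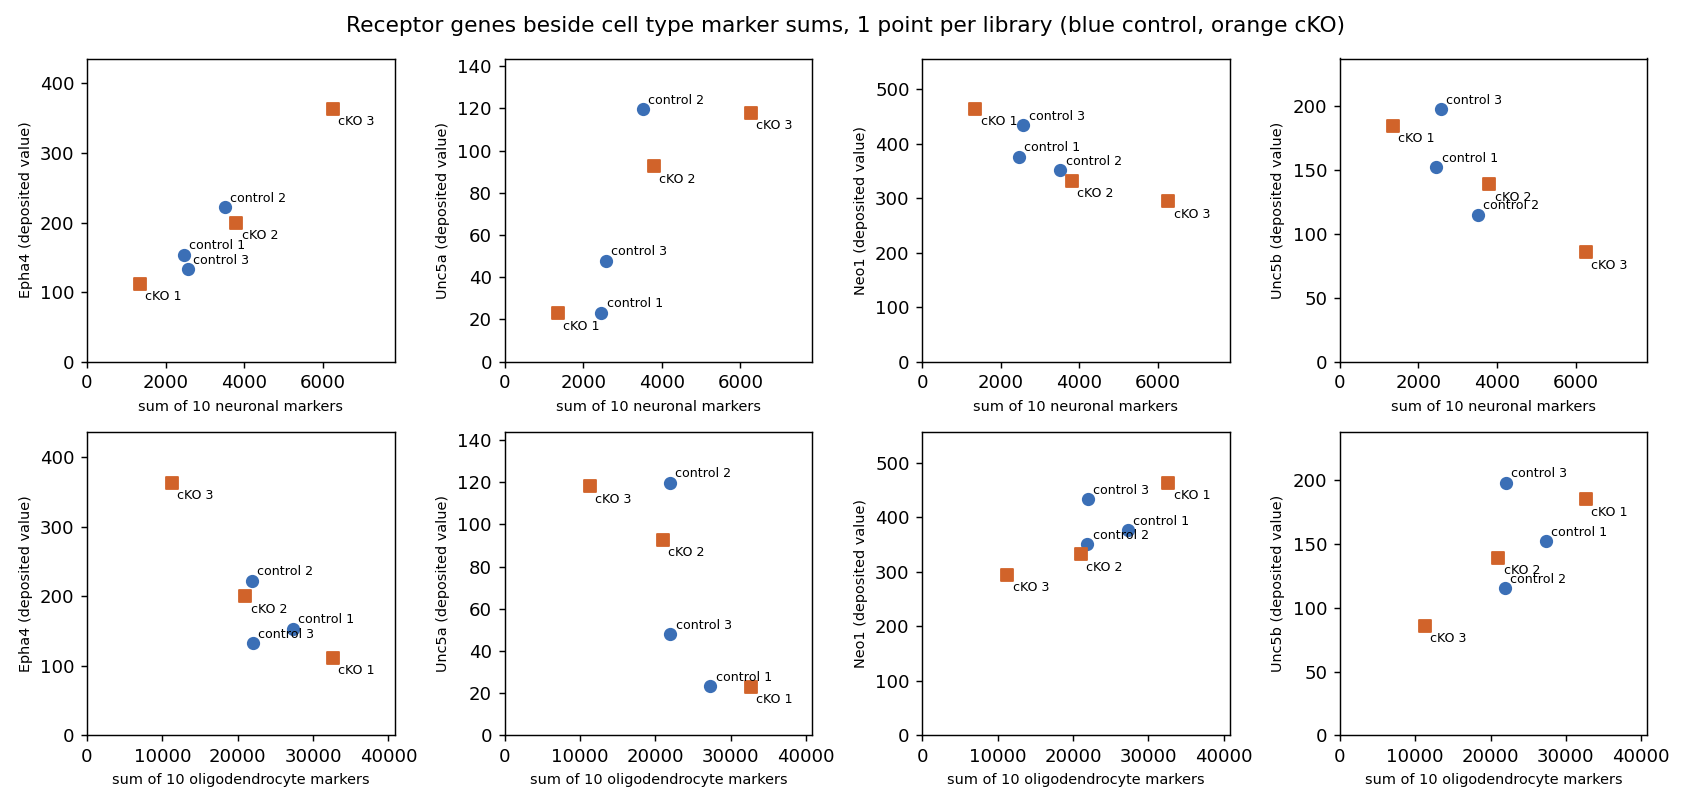
Deposited values of Epha4, Unc5a, Neo1 and Unc5b in each library against the summed level of 10 neuronal markers (upper row) and of 10 oligodendrocyte markers (lower row); each point is 1 library (blue circles control, orange squares cKO). Epha4 and Neo1 have their extremes in cKO replicates 1 and 3, at 112 and 363 for Epha4 and 464 and 294 for Neo1, which are also the extremes of both marker sums.

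Other genes of these pathways, a list of 58 cytoplasmic effectors, co-receptors and partners, also showed no called change. Of the 57 tested, 0 were called in limma, 32 had a fold change above 0 and 25 below, and the median was 0.03, against -0.02 for all tested genes. Draxin, a netrin antagonist, was too low to be tested. In 2 of the 57 the groups did not overlap, against 4.7% of all tested genes. Pak3, a kinase downstream of Rac and Cdc42 with a role in spines, was at 124, 103 and 97.01 in the control libraries and 125, 159 and 164 in the cKO libraries, with all cKO libraries above all controls and a fold change of 0.46 ± 0.29. Vav3, an exchange factor that Eph receptors use for ligand uptake, was at 11.9, 27.4 and 42.4 in the control libraries and 10.2, 8.28 and 7.66 in the cKO libraries. All cKO libraries were below all controls, its fold change was -1.38 ± 0.56, and its unadjusted p of 0.0328 was the only one under 0.05 on the list.

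Lrrc4c, the dendritic partner of netrin-G1, was at 120.02, 102 and 104 in the control libraries and 101, 234 and 215 in the cKO libraries. cKO replicates 2 and 3 were above every control and cKO replicate 1 was just below the lowest control; the fold change was 0.66 ± 0.36, or 0.44 without cKO replicate 2 and 1.04 without cKO replicate 1. Src, a kinase downstream of Eph and netrin receptors, was at 36.5, 54.7 and 39.6 in the control libraries and 44.8, 71.9 and 64.3 in the cKO libraries, with a fold change of 0.45 ± 0.35. Dock1, a Rac activator downstream of DCC, was at 357, 264 and 363 in the control libraries and 393, 119 and 117 in the cKO libraries. Here cKO replicates 2 and 3 were below every control and cKO replicate 1 above them, for a fold change of -0.88 ± 0.46, or -1.45 without cKO replicate 1 and -0.58 without cKO replicate 3. Adam10, the protease that cuts ephrin-A ligands from the membrane, was at 320.1, 161 and 292 in the control libraries and 306, 73.2 and 165 in the cKO libraries, with a fold change of -0.67 ± 0.50, or -0.13 without cKO replicate 2 and -1.16 without cKO replicate 1. The adjusted p of each of these 6 genes was 0.9996 in limma.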

How the data were processed

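Bulk RNA sequencing of sorted cells was analysed for 6 libraries, 3 per group; 24419 gene symbols had 1 value per library. Per the labels, tissue was treated with pronase for 75 min, and the Ovation SoLo kit was used for library preparation. Tools listed in the submitters' processing notes, without versions, are HISAT2, Trimmomatic, featureCounts and edgeR, on mm10. The deposited values are a normalized signal, depth-scaled read counts (CPM) that the authors appear to have rescaled per library, as the column totals are unequal; the design had assumed plain CPM. In each library 100% of values were whole multiples of 1 step within 0.001, so whole reads were recovered. Those of genes that share exons or sequence with another gene are uncertain, because the strand and multiple-match settings were not given in the sources used.

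The main test was limma 3.58.1 (R 4.3.3) on log2(value + 1) with the variance trend enabled, for genes at 1 or more in at least 3 libraries, with Benjamini-Hochberg adjustment over 14796 genes and a threshold of 0.05. As alternatives, edgeR 4.0.16 and DESeq2 1.42.0 were run on recovered reads, the pseudocount was set to 0.1 or 5, and the filter was dropped or raised to 5. Scaling was changed to quantile or to median-of-ratios factors, array weights or a replicate block were added, and single libraries were left out. The procedure was tested on simulated data. Exon lengths, with all annotated exons of a gene merged, and positions came from GENCODE M21. No protein sequences were used here.

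The members and lists were chosen with earlier results of these data known. Values in every library were to be given for the 3 ligands and 6 receptors with the highest mean, the 4 members per direction with the smallest unadjusted p, and members whose groups did not overlap, of which there were none; of the pathway list, the 3 per direction with the smallest p. Other members are described for completeness.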

Additional observations from a re-analysis of the deposited data

How the results depend on the processing

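With 3 libraries per group, only large differences could be told from the spread. No guidance gene was called under any of the 16 alternatives. DESeq2 called 1 gene lower in cKO, Ifit3, with an adjusted p of 0.0121, and none of the other alternatives called any gene; their smallest adjusted p was 0.606, without cKO replicate 1. Over 367 values of 23 named genes, 15 had the sign turned, 14 of them by leaving out 1 library. The other turn was Unc5c with array weights, at -0.051. In every alternative run 13 genes kept their sign. Those 13 were all named for a small unadjusted p in limma on these same libraries. The genes named for a high mean each turned in 1 or more runs. The count of kept signs thus follows in part from the choice of genes and is no measure of robustness. As single libraries were left out, the fold change ran from -0.38 to 0.23 for Efnb3, -0.19 to 1.28 for Slit1, -0.29 to 1.05 for Slit3, -0.30 to 0.025 for Neo1, -0.15 to 0.70 for Epha4, -0.47 to 0.081 for Unc5b, -0.019 to 0.29 for Unc5c, -0.21 to 0.82 for Robo2, -1.35 to 0.043 for Ephb1 and -1.15 to 0.0061 for Ntn5. The count of members higher in cKO ran from 13 to 25, their median from -0.16 to 0.33, that of ligands from -0.16 to 0.19 and that of receptors from -0.18 to 0.50. With the replicate block 0 genes were called, with 110 higher and 197 lower at an unadjusted p under 0.05, against 50 and 76 without it. The deviations of same-numbered libraries correlated at 0.49, 0.30 and 0.034, each library best with its own number. The third value barely differed from the 0.028 of control replicate 3 with cKO replicate 2. The pattern is a hint from the data and not from the design. The cause of these shifts was not tested.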
